A study of Sus scrofa with 8 samples.

Results

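The mitosis and kinetochore genes are a list of 34 genes whose products condense and hold chromosomes, attach them to the spindle, time the exit from mitosis and divide the cell. Each row of the matrices whose gene symbol is on the list was taken, which found 31 of the 34 among 21301 genes, and these 31 are called member genes here. AURKA, BUB1B and NUSAP1 had no row with that symbol. BUB1B and NUSAP1 could be paired with rows that carry only a gene ID through a table of gene names, and their values are given apart from the 31. The choice of genes used no measured value of these libraries, but it was made with earlier results of them known.

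Single-cell RNA-seq of 8 libraries was analysed, each the single sample of its stage and breed, from Tibetan pigs (ZZ) or DurocxTibetan pigs (DZ). The libraries of embryonic day (E) 16, 18 and 21 came from somites, the blocks of tissue beside the neural tube that form muscle, vertebrae and dermis, and those of E28 from myotome, the muscle-forming layer of the somite. Where a pair of values stands for a stage, ZZ comes first. No library carried an engineered allele or a treatment, and each pooled 5 embryos of 1 sow, so embryos cannot be told apart and a p-value below measures the spread between libraries of different stages and breeds. E16 and E18 are called early and E21 and E28 late, which gives 4 libraries on either side, and the tissue (E28) and the Cell Ranger version (both E16 libraries) cannot be told apart from stage.

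After filters on genes, UMIs (unique molecular identifiers, which count RNA molecules), mitochondrial UMIs and doublets, 74868 cells of 90688 barcodes remained, between 5774 and 10972 a library, with medians of 3406 to 6225 UMIs a cell. E16-ZZ stood apart: 39.2% of its barcodes were over the mitochondrial limit, against 1.05% to 9.15% in the other 7. Any pair of libraries shared 23 to 49 cell barcodes. Cells were gated into classes by marker genes, none of them a member, and a class name means cells that resemble that type by those markers. The E28 libraries held many cells besides muscle, with 6078 of 9903 cells in the connective tissue gate in E28-ZZ and 5617 of 10972 in E28-DZ. In sums over cells, fewer cycling cells and less RNA per cycling cell cannot be told apart, so shares of cells are given beside levels.

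As background, cyclin B with its kinase CDK1 drives the entry into mitosis. Kinetochores are the protein plates on centromeres that bind spindle microtubules, and a checkpoint kept by BUB1 and TTK holds back CDC20 and the ubiquitin ligase APC/C until every chromosome is bound. The RNAs of most of these genes accumulate in G2 and M phase and are scarce in cells that have left the cycle, so they are widely used to mark dividing cells. In the somite, muscle progenitors divide while they express PAX3, PAX7 and MYF5, and cells that turn on MYOG and myosin genes leave the cycle and fuse.

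Promoters of such genes are known for a pair of short elements, the cell cycle genes homology region (CHR, TTTGAA or TTTAAA) and the CCAAT box, which are bound by the DREAM complex, B-MYB and NF-Y. All 31 members matched a RefSeq gene of Sscrofa11.1, the build of the matrices, and windows from 250 bases before to 50 bases after the annotated gene start were searched on both strands. TTTAAA reads the same on both strands, and a CHR word and CCAAT can share at most an end base, which none of the printed ones do. A CHR word was found in 22 of 31 members (71%), against 23% of 19531 protein-coding genes. CCAAT was found in 25 members (80.6%) against 35.4% of all genes, and both in 18 members (58.1%) against 9.03%. In 9 members both stood within the last 150 bases before the start. Of those 9, 6 are printed because they show the arrangement in genes of different roles: the kinase and the cyclin of mitotic entry, the ubiquitin-conjugating enzyme of mitotic exit, a kinetochore protein, a spindle-pole protein and a chromatin protein. Each is the 150 bases before the gene start, 5′ to 3′ on the gene's strand, with CHR words (TTTGAA, its reverse TTCAAA, or TTTAAA) and CCAAT (or its reverse ATTGG) in capitals.
CDK1 (mitotic kinase, chr14:64233795-64233944, plus strand): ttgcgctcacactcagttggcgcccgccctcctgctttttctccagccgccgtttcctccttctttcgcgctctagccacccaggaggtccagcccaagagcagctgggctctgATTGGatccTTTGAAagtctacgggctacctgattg
CCNB1 (cyclin B1, chr16:47338089-47338238, plus strand): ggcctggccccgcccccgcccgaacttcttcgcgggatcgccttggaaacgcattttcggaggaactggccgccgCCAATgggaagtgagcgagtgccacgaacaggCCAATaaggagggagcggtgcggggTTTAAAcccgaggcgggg
UBE2C (ubiquitin-conjugating enzyme, chr17:48018253-48018402, plus strand): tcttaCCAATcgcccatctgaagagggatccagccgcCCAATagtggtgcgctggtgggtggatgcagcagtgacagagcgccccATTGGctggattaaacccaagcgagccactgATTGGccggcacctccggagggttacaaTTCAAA
CENPF (kinetochore protein, chr9:129012242-129012391, minus strand): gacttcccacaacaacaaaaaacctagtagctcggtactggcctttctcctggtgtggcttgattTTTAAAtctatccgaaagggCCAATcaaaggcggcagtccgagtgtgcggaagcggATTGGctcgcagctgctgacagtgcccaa
ASPM (spindle-pole protein, chr10:20039681-20039830, minus strand): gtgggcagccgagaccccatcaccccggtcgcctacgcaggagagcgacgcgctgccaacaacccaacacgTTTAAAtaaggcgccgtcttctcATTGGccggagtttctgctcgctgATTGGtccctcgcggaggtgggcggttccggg
HMGB2 (chromatin protein, chr14:16709816-16709965, plus strand): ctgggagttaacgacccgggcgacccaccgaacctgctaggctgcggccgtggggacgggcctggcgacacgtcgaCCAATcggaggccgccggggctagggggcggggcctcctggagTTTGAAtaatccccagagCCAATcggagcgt

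Among those sequences the first base of the CHR word lay 27 bases upstream of the start in CDK1 and 18 in CCNB1, and in both a CCAAT box was the next word upstream, from 36 and 43 bases. In UBE2C the CHR word touched the annotated start and 4 CCAAT boxes stood before it. These matches describe letters in a window and were not tied to any measurement of binding. ANLN and SGO2 held neither word in the whole window.

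Across whole libraries most member genes fell from the early to the late libraries. Summed over the 31 genes, their UMIs per 1000000 UMIs of the library (CPM) came to 3601 and 3921 at E16 and to 4916 and 5003 at E18. E21 then gave 3441 and 3706, and E28 gave 2754 and 2627. The sum was highest at E18 and lowest at E28 in both breeds, and the E16 and E21 libraries lay between, overlapping each other. In edgeR's quasi-likelihood test with Benjamini-Hochberg adjustment over 14337 genes, 21 of 31 members were lower late and none was higher, with a median log2 fold change of -0.69, against 0.03 over all genes. Of all genes tested 17.2% were lower and 17.3% higher. Left out 1 at a time, the libraries gave 16 to 22 members lower, and 1487 to 2324 genes in all. The mix of cell types changed between these libraries too. Summed over whole libraries, 8 neuron markers were at 96.5 to 281 CPM early and 575 to 3188 late. For 10 epithelial markers the sums were 1989 to 7106 and 6.88 to 126, and for 9 connective ones 788 to 2250 and 2074 to 6798. The part of this mix in the fall was not tested.

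**Figure D1:**
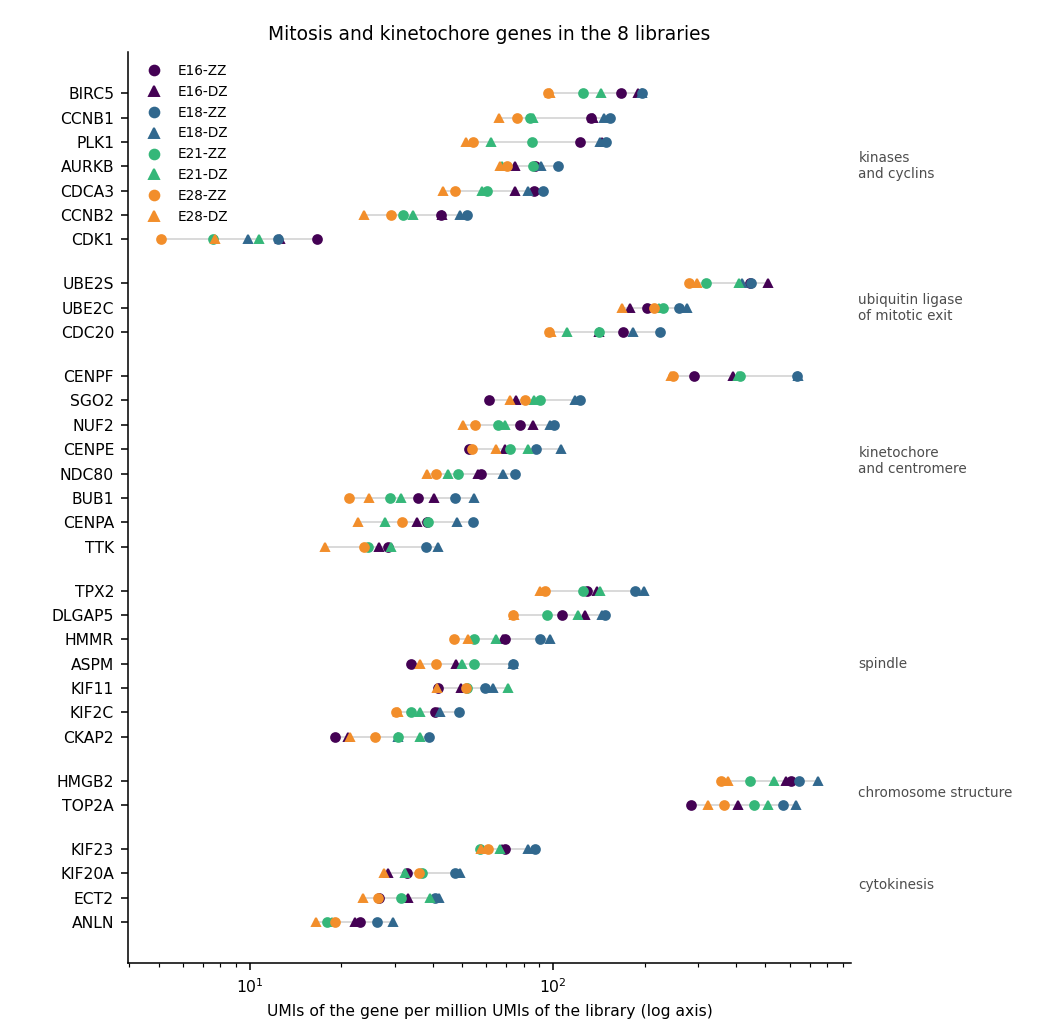
Level of each member gene in the 8 libraries, as UMIs of the gene per 1000000 UMIs of the library on a log axis, with 1 point a library (colour for stage, circles for ZZ, triangles for DZ) and a grey line over the range. For PLK1 all 4 late libraries, from 51.4 to 84.8, sit below the early ones, from 122 to 150, whereas for KIF11 the stages are mixed.

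The kinases, cyclins and their partners fell together: 7 of 7 were lower late, with log2 fold changes of -1.33 to -0.47. PLK1, a kinase that acts at centrosomes, kinetochores and the cleavage furrow, was at 122 and 145 CPM (E16) and 150 and 142 CPM (E18) in the early libraries. In the late ones it was at 84.8 and 62.5 (E21) and 54.5 and 51.4 (E28). The groups of libraries did not overlap, and the log2 fold change was -1.33 ± 0.16 (SE, edgeR adjusted p = 0.0024). CCNB1, cyclin B1, was at 133.2, 134.8, 153.2 and 146.5 CPM in the early libraries and at 83.6, 85.7, 76.0 and 66.0 in the late ones in the same order, again without overlap (log2 fold change -1.03 ± 0.12, edgeR adjusted p = 0.0022). CCNB2, BIRC5 and CDCA3 fell by 0.81, 0.87 and 0.85 on the log2 scale. BIRC5 (survivin) and AURKB belong to the passenger complex that corrects wrong attachments. AURKB fell by 0.47 with early and late levels that overlapped. CDK1 was counted thinly, at 5.08 to 16.7 CPM, and its fall of 0.93 on the log2 scale (edgeR adjusted p = 0.042, from 0.0089 to 0.23 over the alternatives) was called in 8 of 16 alternatives.

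Of the 8 kinetochore and centromere genes, 5 were lower late: BUB1 fell by 0.91 on the log2 scale, NUF2 by 0.75, NDC80 by 0.74, CENPA by 0.72 and TTK by 0.65. NDC80 and NUF2 are partners in the complex that grips microtubules, and CENPA is the histone that marks the centromere. CENPF, CENPE and SGO2 did not pass. CENPF rested on 292 and 390 CPM (E16), 636 and 641 (E18), 411 and 407 (E21) and 249 and 245 (E28), so that its E18 libraries lay above all others and the early and late groups overlapped (log2 fold change -0.72 ± 0.28, edgeR adjusted p = 0.081). Of the genes of mitotic exit, UBE2S fell by 0.66 and CDC20 by 0.85, and UBE2C gave -0.30 ± 0.15 (edgeR adjusted p = 0.17).

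Among 7 spindle genes HMMR, DLGAP5, TPX2 and KIF2C were lower late, by 0.74, 0.70, 0.69 and 0.57 on the log2 scale, and ASPM, KIF11 and CKAP2 did not pass. KIF11, the motor that pushes spindle poles apart, was at 41.5, 49.5, 59.5 and 63.5 CPM in the early libraries and at 52.1, 70.7, 51.4 and 41.5 in the late ones. The highest KIF11 level was that of E21-DZ, and its log2 fold change was -0.14 ± 0.19 (edgeR adjusted p = 0.60). Of the chromosome genes, HMGB2, a DNA-bending protein that is less confined to G2 and M phase, fell by 0.76, and TOP2A, the topoisomerase that untangles sister chromatids, gave -0.33 ± 0.24 (edgeR adjusted p = 0.30). Of the cytokinesis genes, ANLN and KIF23 fell by 0.65 and 0.50, and KIF20A and ECT2, at -0.41 and -0.40, did not pass. The rows paired with BUB1B and NUSAP1 gave -0.63 ± 0.19 (edgeR adjusted p = 0.036) and -0.10 ± 0.24 (edgeR adjusted p = 0.76).

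Without both E16 libraries 8 members were lower late, with a median of -0.78, and 702 genes in all were lower in place of 2465. Without both E28 libraries 12 members were lower, with a median of -0.50, and 1241 genes in all. ANLN, BUB1, CCNB1, CDC20, CENPA, NDC80 and PLK1 were called in all 16 alternatives run for this comparison. A wider list of 75 other mitosis genes gave 33 lower, 1 higher and 41 that did not pass, with a median of -0.41. MYBL2, the B-MYB transcription factor, had the lowest value of the called ones at -1.47 ± 0.22 (edgeR adjusted p = 0.0034), followed by MAD2L1, CENPT, TRIP13 and MELK between -1.02 and -0.86, and MIS12, a kinetochore protein, was the gene that rose (0.52 ± 0.13, edgeR adjusted p = 0.020).

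**Figure D2:**
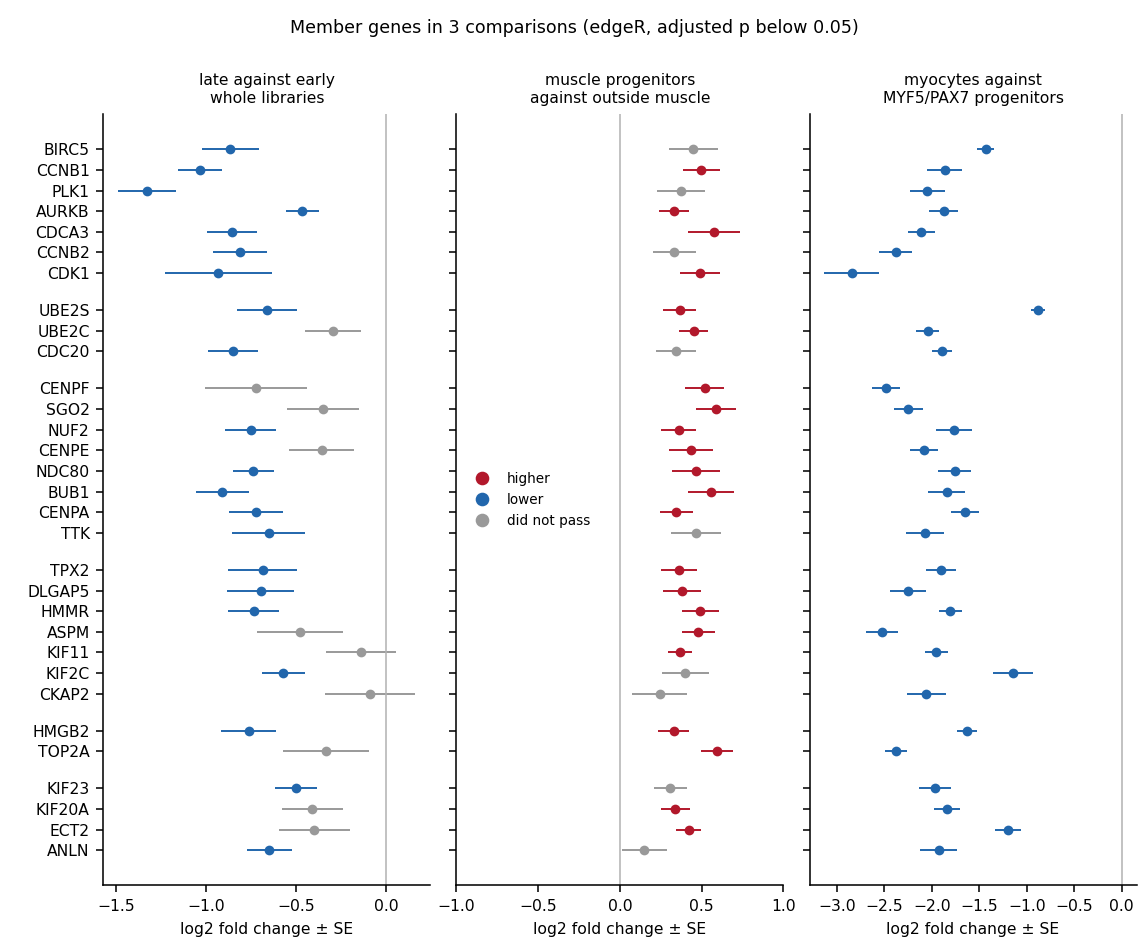
Log2 fold change (points) and its standard error (bars) of each member gene in 3 comparisons, coloured by the edgeR call at an adjusted p below 0.05. Member genes lie left of 0 in the late libraries and, further left, in myocytes, and right of 0 in muscle progenitors against cells outside muscle.

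Counting cells in place of UMIs gave a steeper fall. Each cell was thinned to 1500 UMIs, leaving out 101 to 1093 shallower cells a library, and cells with a UMI of 4 or more of the 31 members were counted. The E16 shares were 46.1% (95% exact binomial interval 44.8% to 47.4%, for counting error only) and 53.5%, and the E18 shares 51.9% and 52.8%. The E21 shares were 22.9% and 25.8%, and the E28 shares 16.5% and 15.0%. The early mean was 51.1% ± 3.39 (SD, n = 4) and the late mean 20.1% ± 5.14 (SD, n = 4), without overlap. Without thinning, where deeper cells pass more easily, the shares were 76.1% to 80.6% early and 23.3% to 40.8% late. Between 19.3% and 24.0% of early cells and 5.73% to 8.72% of late cells held 3 or 4 members, next to the limit.

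The number of member genes per cell changed in shape as well. Cells with no member UMI made up 8.11% to 11.6% of cells in the early libraries, 36.8% and 32.9% at E21 and 46.0% and 44.2% at E28. Cells with 12 or more members made up 2.16% and 2.29% (E16), 6.63% and 6.75% (E18), 6.27% and 6.72% (E21) and 5.05% and 4.59% (E28). Between E18 and E21 the share of cells with 4 or more dropped from 51.9% and 52.8% to 22.9% and 25.8%, while the share with 12 or more stayed between 6.27% and 6.75%. Among cells with 4 or more, the mean number of member UMIs per 1500 was 8.86 and 8.95 (E16), 11.2 and 11.6 (E18), 15.3 and 15.0 (E21) and 15.9 and 16.3 (E28). Late libraries held fewer cells with several members and more member UMIs in each such cell, with no overlap of early and late libraries in either measure.

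**Figure D3:**
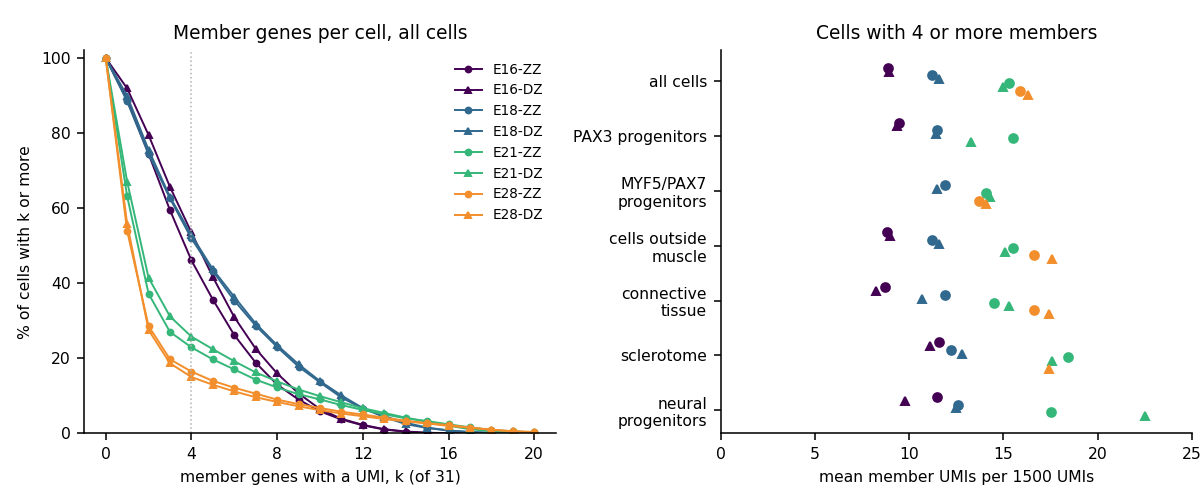
Left, the share of all cells of a library (y axis, %) with k or more of the 31 member genes at 1500 UMIs per cell (x axis), the dotted line at 4. Right, the mean number of member UMIs per 1500 UMIs in cells with 4 or more members, by class and library. The early curves start higher and end lower than the late ones, and the points on the right move from 8.86 at E16-ZZ to 16.3 at E28-DZ over all cells.

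Inside the muscle lineage, MYH3/MYMK/MYOG myocytes were compared with MYF5/PAX7 progenitors, and the members were far lower in myocytes. Both gates held at least 20 cells in the 6 libraries from E18 on (105 to 1831 progenitors and 59 to 543 myocytes a library), and medians of UMIs per cell were alike, 4508 to 7396 in progenitors and 4654 to 7871 in myocytes. All 31 members were lower in myocytes, with log2 fold changes of -2.84 to -0.88 and a median of -1.93 (edgeR, library as a block), where 21.3% of 8772 genes were lower and 21.3% higher. Every member was called lower in each alternative in which it was tested, each library left out included. With gates read from thinned counts 29 members were tested, without CCNB2 and CDK1, and all 29 were lower. The summed level of the members in progenitors was 5610 and 5235 CPM (E18), 4248 and 3993 (E21) and 4345 and 4119 (E28). In myocytes of the same libraries, in this order, it was 929, 1187, 915, 934, 1176 and 1164 CPM. The progenitors of E18 lay above those of E21 and E28, and the myocyte values lay between 915 and 1187 CPM. The MYF5/PAX7 gate was not equal across stages. Its marker MYOD1 was at 0 CPM in both E18 libraries, 88.4 and 47.6 at E21 and 196 and 218 at E28. MSC, another of its markers, was at 7.24 and 0, 93.3 and 82.2, and 377 and 1016 CPM. The part of this in the levels and shares of progenitors was not tested.

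TOP2A showed the gap plainly, with 548 to 715 CPM in progenitors and 83.5 to 123 CPM in myocytes (log2 fold change -2.38 ± 0.12, edgeR adjusted p = 6.4e-09). CENPF, a large protein of the outer kinetochore, was at 421 to 792 CPM against 58.4 to 81.0 (-2.48 ± 0.14, edgeR adjusted p = 3.4e-08). CDK1 had the lowest value, -2.84 ± 0.29, with 7.76 to 20.01 CPM in progenitors and 0 to 1.99 CPM in myocytes, where few UMIs stand behind it. At the other end, UBE2S, which lengthens the ubiquitin chains that UBE2C starts, was at 394 to 516 CPM in progenitors and still at 195 to 234 CPM in myocytes (-0.88 ± 0.07, edgeR adjusted p = 9.8e-07). KIF2C and ECT2, at -1.15 and -1.20, were the next smallest differences. By role the medians were close: -2.05 for kinases and cyclins, -1.96 for kinetochore genes, -1.95 for spindle genes, -1.90 for the genes of mitotic exit and -1.89 for cytokinesis. The rows paired with BUB1B and NUSAP1 gave -1.77 and -1.997, both called.

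In shares of cells, MYF5/PAX7 progenitors with 4 or more members made up 53.3% and 53.4% (E18), 32.3% and 29.3% (E21) and 32.7% and 30.8% (E28). Myocytes with as many made up 8.62% and 8.91%, 7.58% and 6.00%, and 7.57% and 9.89% at these stages. The difference averaged 30.5 percentage points over 6 libraries (SD 11.0), and the ranges did not overlap. Free RNA in droplets can add member UMIs to any class, and its part was not tested. Gated neurons of E21 and E28, which should lack these RNAs, had shares of 0% to 5.45% at median depths of 3904 to 4934 UMIs. In E21-ZZ the myocyte share was 7.58% (interval 4.30% to 12.2%) and the neuron share 2.85% (2.15% to 3.70%). For E21-DZ they were 6.00% (3.14% to 10.2%) and 4.37% (3.11% to 5.95%). For E28-ZZ they were 7.57% and, from 55 neurons, 5.45% (1.14% to 15.1%), and for E28-DZ 9.89% (7.49% to 12.7%) and 0% (0% to 1.74%). Each interval covers counting error within a library, and no test was run between these classes. Cells with a UMI of UBE2S made up 24.0% to 29.3% of myocytes and 31.1% to 43.8% of progenitors, and cells with a UMI of TOP2A 5.94% to 12.1% and 25.1% to 44.9%.

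Of the 66 other mitosis genes that could be tested in myocytes, 61 were lower, 1 was higher and 4 did not pass, with a median of -1.49. CENPT, HJURP, KIF4A, CIT and SGO1 lay lowest, between -2.45 and -2.22. STMN1, a microtubule-destabilizing protein, fell by 0.37, and CDC25B, a phosphatase that activates CDK1, was the gene that rose (1.502 ± 0.10, edgeR adjusted p = 1.1e-07).

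PAX3 progenitors, the dermomyotome cells that precede MYF5/PAX7 cells, were gated in numbers of 91 and 184 (E16), 324 and 321 (E18), 147 and 117 (E21) and 22 and 15 (E28). Against MYF5/PAX7 progenitors of the same 5 libraries none of 31 members passed (edgeR, library as a block), where 3.86% of 8922 genes did. Log2 fold changes ranged from -0.26 to 0.21 with a median of 0.01. The libraries went both ways in summed level. PAX3 cells were higher at E18 (5792 and 5582 CPM against 5610 and 5235) and in E21-ZZ (5328 against 4248). They were lower in E21-DZ (3634 against 3993) and, from 22 cells, in E28-ZZ (2551 against 4345). At an unadjusted p below 0.05 there was 1 member, and DESeq2 called none. The share of PAX3 progenitors with 4 or more members was 47.3% in E16-ZZ (interval 36.7% to 58.0%), 69.2% in E16-DZ, 62.2% and 63.9% for E18, 36.1% and 27.4% for E21 and 18.2% of 22 cells for E28-ZZ. From E18 to E21 PAX3 and MYF5/PAX7 progenitors were both lower in share in either breed. Markers of other types, among them myocytes, neurons and connective tissue, moved with this. For myocytes, the 9 on the list summed to 312 and 614 CPM (E18), 2343 and 2555 (E21) and 1335 and 1338 (E28) in the MYF5/PAX7 gate. In the PAX3 gate they summed to 58.9 and 126 CPM (E18) and 858 and 1347 (E21), against 76.3 and 108 outside muscle at E21. The 8 neuron markers summed to 53.1 and 65.0 CPM (E18) and 763 and 509 (E21) in the MYF5/PAX7 gate, and to 55.4 and 56.8 (E18) and 1123 and 857 (E21) in the PAX3 gate. The 9 connective markers summed to 491 and 486 CPM (E18) and 1578 and 1470 (E21) in the MYF5/PAX7 gate. In the PAX3 gate they summed to 755 and 721 (E18) and 2387 and 2089 (E21). The part of these lists in the lower shares was not tested. E16-ZZ, the library with many barcodes over the mitochondrial limit, lay lower than E16-DZ in this class.

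**Figure D4:**
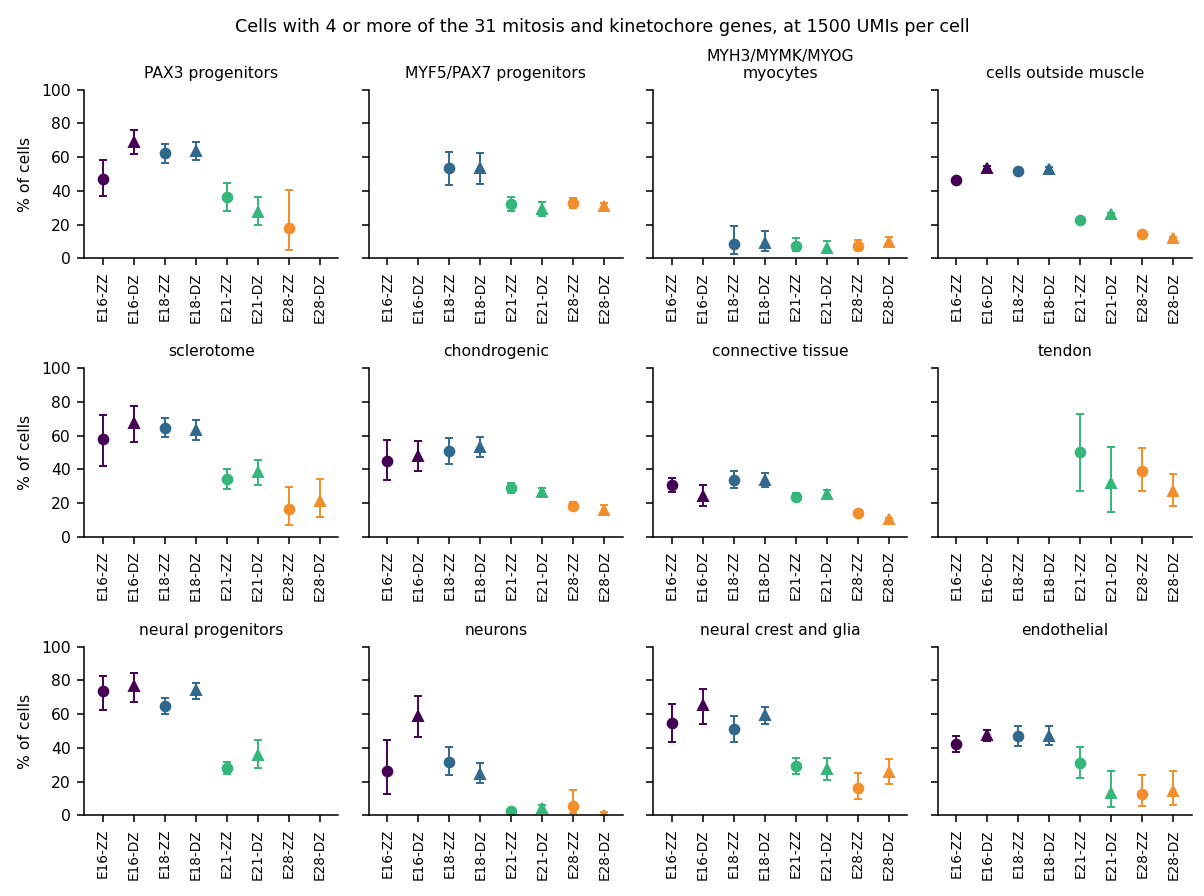
Share of cells (y axis, %) with 4 or more of the 31 member genes at 1500 UMIs per cell in 12 marker-gated classes and each library, with exact 95% binomial intervals; classes with fewer than 20 cells in a library have no point. Myocytes lie between 6.00% and 9.89% in all 6 libraries, MYF5/PAX7 progenitors hold between 29.3% and 32.7% at E21 and E28, and sclerotome and connective tissue continue down to E28.

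Muscle progenitors, as PAX3 and MYF5/PAX7 cells together, were set against all cells outside the muscle lineage (neither myocytes nor cardiac muscle) in the 8 libraries. The outside group includes cells that passed no gate, 5229 of 8812 in E18-ZZ and 5808 of 8864 in E18-DZ. Ungated cells of E28 held the 9 myocyte markers at 277 and 610 CPM, so they are not shown to lie outside muscle. Higher in muscle progenitors were 22 of 31 members and lower was none, with a median log2 fold change of 0.40 (edgeR, library as a block), where 8.41% of 12740 genes were higher. The difference was small beside that to myocytes. The outside group pools unlike classes, and some had higher summed levels than muscle progenitors. Neural progenitors were higher in every library with both, as at E18 with 6653 and 6693 CPM against 5748 and 5502. Sclerotome cells were higher up to E21 (6024 and 6116 CPM against 4472 and 3933) and lower at E28 (4056 and 2909 against 4314 and 4154). Tendon cells, from 20 to 98 gated cells a library, were higher at E21 (7567 and 6595 CPM) and at E28 (5965 and 4311). TOP2A and SGO2, the guardian of sister chromatid cohesion, had the highest values, 0.59 ± 0.10 (edgeR adjusted p = 0.0021) and 0.59 ± 0.12 (edgeR adjusted p = 0.0078). In muscle progenitors TOP2A counted 400 and 635 CPM (E16), 758 and 786 (E18), 671 and 566 (E21) and 588 and 553 (E28). Outside muscle the CPM were 285 and 405, 568 and 627, 451 and 519, and 340 and 276. TOP2A was higher in muscle progenitors in 8 of 8 libraries.

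By role, 7 of 8 kinetochore genes passed, 5 of 7 spindle genes, 4 of 7 kinases and cyclins, 2 of 3 genes of mitotic exit, 2 of 4 cytokinesis genes and both chromosome genes. ANLN, an actin-binding protein of the cleavage furrow, gave 0.15 ± 0.14 and CKAP2 0.24 ± 0.17. Depth moves with this comparison: median UMIs per cell were 4498 to 7416 in muscle progenitors and 3173 to 6180 outside. The part of depth was not tested apart from the gates. With gates read from counts thinned to 1500 UMIs, 5 members were higher, with a median of 0.28, and HMMR, a microtubule-binding protein of the spindle, was the member called in all 16 alternatives. Without E21-ZZ 11 members were higher, and without E28-ZZ or E28-DZ 13. Genes higher in all numbered 562, 635 and 592 in these runs and 668 with thinned gates, in place of 1071. Of 75 other mitosis genes 30 were higher and 45 did not pass, led by CDC25B (0.96 ± 0.16, edgeR adjusted p = 0.0025), ZWINT, CENPT, PIMREG and CDCA8.

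The gap between muscle progenitors and the rest was set against stage. Both sides changed make-up. PAX3 cells were 91 of 97 and 184 of 191 muscle progenitors at E16, and MYF5/PAX7 cells 1060 of 1082 and 1831 of 1846 at E28. Outside, ungated cells were 2680 of 5586 and 4937 of 9166 at E16, and 947 of 8509 and 1420 of 8583 at E28. Connective tissue cells made up 6078 and 5617 of the outside cells at E28. The part of make-up in the gap was not tested. For E16, summed levels were 4504 and 5059 CPM in muscle progenitors against 3601 and 3932 outside, and for E18 they were 5748 and 5502 against 4916 and 5024. For E21 they were 4472 and 3933 against 3430 and 3785, and for E28 4314 and 4154 against 2570 and 2327. The E21 and E28 ranges overlapped in muscle progenitors and did not overlap outside. Neurons stayed in the outside group, while myocytes were left out of the muscle side. Neuron markers outside summed to 97.4 to 300 CPM early and 651 to 3503 late. In a fit with a late minus early term, chosen after the levels had been seen, the term was positive for all 31 members (median 0.44) and passed for 4, CDCA3, CENPE, UBE2S and KIF23, where 7.77% of genes passed upward. With 1 library left out 2 to 18 passed, the 18 without E21-DZ. Between 486 and 1097 genes in all passed upward in these runs, and 1010 without E21-DZ. The share of cells with 4 or more members was higher in muscle progenitors by 2.11 and 14.4 percentage points (E16), 8.03 and 8.07 (E18), 10.6 and 2.90 (E21) and 17.7 and 19.1 (E28).

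**Figure D5:**
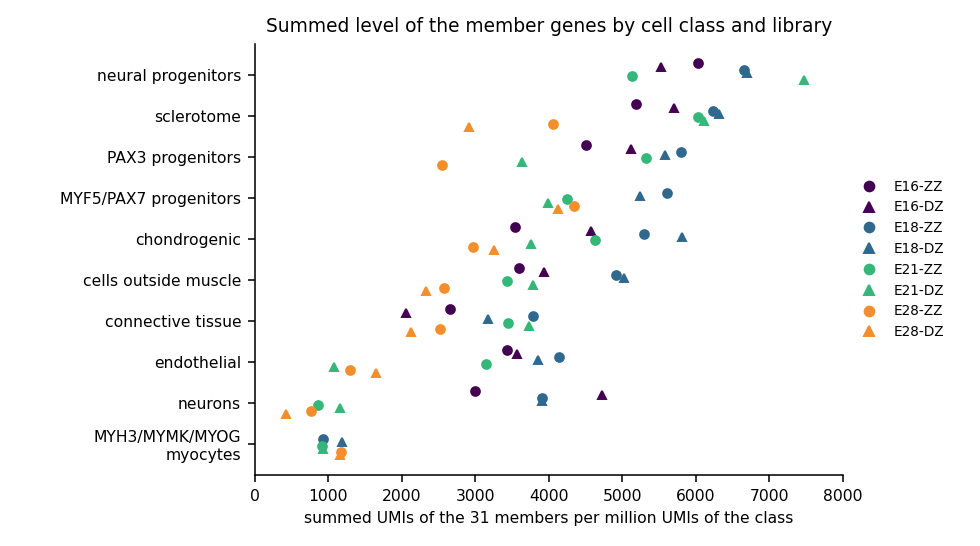
Summed level of the 31 member genes (x axis, UMIs per 1000000 UMIs of the class) in 10 classes, with 1 point a library where the class had 20 or more cells. Myocytes, at 915 to 1187, and the neurons of E21 and E28, at 420 to 1165, lie at the low end together with the late endothelial cells of E21-DZ (1081), E28-ZZ (1290) and E28-DZ (1647). Neural progenitors lie between 5128 and 7466.

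Outside muscle, sclerotome cells, which form the vertebrae, held 4 or more members in 57.8% and 67.5% (E16), 64.8% and 63.5% (E18), 34.2% and 38.2% (E21) and 16.3% and 21.4% (E28) of cells. Their summed level was 5183 and 5704 CPM (E16), 6240 and 6313 (E18), 6024 and 6116 (E21) and 4056 and 2909 (E28, from 49 and 57 cells), so that E18 and E21 were close in level but not in share. No member of 30 tested passed between late and early sclerotome cells, where 15.1% of genes did (edgeR, with 5 members at an unadjusted p below 0.05 and none called by DESeq2). Chondrogenic cells gave 6 of 31 members lower late, against 8.08% of genes lower, and 0 once both E28 libraries were left out. The chondrogenic gate was not equal across stages: its 10 markers summed to 1332 to 2017 CPM early and 2988 to 11136 late, with MATN4, a cartilage matrix protein, at 17.3 to 53.0 against 994 to 2899 CPM. Connective tissue cells gave 3 (16.8% of genes), with shares of 24.1% to 33.9% early, 23.8% and 25.3% in the E21 libraries and 13.9% and 10.3% in the E28 ones. The early cells of the connective gate also held markers of another type. In them 10 epithelial markers summed to 11439 to 15161 CPM, against 9.15 to 170 late and 6444 to 13209 in the early epithelial gate, while the 9 connective markers summed to 9790 to 16049 CPM early and 6263 to 9991 late. Among those 9, COL3A1, a fibrillar collagen, was at 3391 to 5287 CPM early and 2241 to 2540 late, and OGN, a proteoglycan, at 9.11 to 14.5 and 123 to 1743. The part of these differences in the member counts was not tested. In these classes the call counts were near the share of all genes called or moved with the library left out. Tendon cells, few in number, held 4 or more members in 27.1% to 50% of 20 to 96 cells a library at E21 and E28.

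In endothelial cells, the lining of vessels, 25 of 31 members were lower late, with a median of -1.24, where 13.1% of genes were lower. The share with 4 or more members was 42.2% to 47.6% early and, late, 30.8% in E21-ZZ against 13.0% in the other E21 library and 12.9% and 14.3% at E28. The late values rest on 46 to 104 cells a library, and 3 members were lower at a mitochondrial limit of 5% and 6 without both E28 libraries. PLK1 was the member called in all 18 alternatives. Neural crest and glial cells gave 10 of 31 lower (11.9% of genes), led by PLK1 at -1.07 ± 0.22 (edgeR adjusted p = 0.0027), and 0 at a mitochondrial limit of 5%. Connective markers in the crest and glia gate summed to 394 to 686 CPM early and 1702 to 3996 late, and their part was not tested. PAX3 progenitors gave 1 of 31, again PLK1 (-1.18 ± 0.32, edgeR adjusted p = 0.041, from 1.3e-05 to 0.63 over the alternatives), where 2.42% of genes were lower. Of 29 members tested in erythroid cells none passed, where 2.56% of genes passed (edgeR, with 3 members at an unadjusted p below 0.05 and 1 called by DESeq2), and the median log2 fold change was 0.25. Other measures of erythroid cells, which were not tested, were lowest at E28, against the sign of that median. Their summed level was 2705, 2465, 3981 and 2360 CPM early and 2169, 2679, 1801 and 1315 CPM late, and shares with 4 or more members were 20.8% to 41.1% early, 33.3% and 31.2% at E21 and, at E28, 6 of 57 and 7 of 63 cells. The highest early values, 3981 CPM and 41.1%, were those of E18-ZZ, whose 968 gated cells held erythroid markers at 172510 CPM, against 305442 to 515798 in the other libraries. Without it the early shares were 20.8% to 34.7%. Erythroid marker UMIs count in the total of both measures, and took 172510 to 428989 CPM early and 480143 to 515798 late. The part of this difference in the levels and shares was not tested.

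Of neural progenitors, 64.9% to 76.5% held 4 or more members in the early libraries, and 28.1% and 35.8% at E21. Their E21 cells with 4 or more members carried a mean of 17.5 and 22.5 member UMIs per 1500, against 9.79 to 12.6 earlier. Neurons, which as a rule do not divide, were set against neural progenitors in 6 libraries: 24 of 31 members were lower (median -1.43, where 8.90% of genes were lower). With 1 library left out 5 to 28 were lower, the 5 without E21-DZ and 7 without E21-ZZ. Calls over all genes are not given for those runs, so these counts alone do not single out the members. The neuron gate was not equal across stages. STMN2, a neuronal growth protein, was at 474 to 1570 CPM in gated neurons of E16 and E18 and at 6026 to 8167 CPM at E21 and E28, and the 8 neuron markers together at 1039 to 3700 against 11324 to 15021 CPM. In step, 24.8% to 59.1% of early gated neurons held 4 or more members, against 2.85%, 4.37%, 5.45% and 0% late, where 0 of 210 cells in E28-DZ allows a share of up to 1.43% by the limit of 3 counts and 1.74% by the exact interval. Between late and early neurons 30 of 30 members were lower (16.9% of genes), and 3 of the 13 that could be tested with gates read from thinned counts, where the median was -2.04 against -2.84. The part of other cells in the early neuron gate was not tested.

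Between the breeds no member passed the test. In edgeR with stage as a block, 0 of 31 members and 0% of 14337 genes passed between DZ and ZZ, with 4 members and 868 genes at an unadjusted p below 0.05. DESeq2 called no member. Log2 fold changes ranged from -0.32 to 0.26, 14 above and 17 below 0.

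Over 101 sums of a class in a library, the members kept a common order of levels. Each member's Spearman correlation with the sum of the other 30 ranged from 0.61 (ANLN) and 0.63 (CDK1) to 0.97 (TPX2), and was 0.94 for TOP2A, DLGAP5 and CENPF. Among 9904 genes with a mean of at least 5 CPM that were on neither list, BBS7, a subunit of a ciliary complex, was most like the summed members (0.93), followed by KPNA2 (0.92), a nuclear import receptor. EZH2, the Polycomb methyltransferase, NUCKS1 and NDE1, a spindle and centrosome protein, were also among the 10 most alike, at 0.84 to 0.85, and the other 5 rows carried only a gene ID, of which 1 is named DBF4. These values share libraries and depth and are given as a description. CCNA2, the cyclin of S phase and G2, had no row with that symbol.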

How the data were processed

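The authors pooled 5 embryos of 1 sow per library, prepared 10x Chromium 3′ libraries and deposited UMI counts that Cell Ranger had produced (3.1.0 for both E16 libraries, 3.0.2 for the other 6) on Sscrofa11.1 with Ensembl annotation. The counts are whole numbers per gene and barcode, not normalized. The samples' extraction notes name E18, E21 and E28 only, and E16 was taken from the sample titles.

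Barcodes with at least 200 genes, at most 30000 UMIs and at most 10% mitochondrial UMIs were kept. The barcodes highest in Scrublet score (scanpy 1.11.5) were removed as doublets, 0.8% per 1000 barcodes, 7526 in all. A marker counted as positive in a cell above 0 and in its top 20% of cells, and a class needed 3 positive markers (2 for short lists). The gates use no member gene. Kept cells held 42273403 to 58220887 UMIs a library.

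UMI counts were summed per library and class (20 cells or more) and tested with edgeR 4.0.16 (glmQLFit and glmQLFTest, TMM, filterByExpr) in R 4.3.3, with Benjamini-Hochberg adjustment over all genes tested and a threshold of 0.05. Stage comparisons had breed as a covariate, comparisons of classes the library as a block, and breeds the stage as a block. The script was tested on simulated data. For shares of cells each cell was thinned to 1500 UMIs, and no test was run over the members as a list. Intervals and upper limits (3 counts for a count of 0) cover counting error only. Python 3.11.15, numpy 2.4.6, pandas 2.3.3 and scipy 1.17.1 were used. Alternatives were RLE normalization, DESeq2 1.42.0, no filter on low counts, other cell filters and gates, and libraries left out.

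The members and the gene lists were chosen with earlier results of these data known. All members were described. Of the other mitosis genes, at most the 5 highest and the 5 lowest among those called were named. Of all other genes, the 10 most like the summed members were taken.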

Additional observations from a re-analysis of the deposited data

Results flagged for a closer look

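Of 122 groups of 4 libraries looked at, 3 held a library far from the other 3, where chance marks about 1 in 20. AURKB was at 85.99 CPM in E21-ZZ, against 66.9 to 70.15 CPM in the other late libraries. The share of endothelial cells with 4 or more members was 42.2% in E16-ZZ, against 46.8% to 47.6% in the other early libraries, and 30.8% in E21-ZZ, against 12.9% to 14.3% in the other late ones.

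The difference between muscle progenitors and cells outside muscle was larger late than early by 0.7766 on the log2 scale for CDCA3, 0.7183 for CENPE, 0.5185 for UBE2S and 0.4727 for KIF23. Each of these 4, of 31 members, passed edgeR's test of the late minus early term, which was chosen after the data had been seen. Of 12740 genes tested, 7.77% passed upward, and no member was called in every alternative.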

How the results depend on the processing

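The members were lower in myocytes in every alternative in which they were tested, 29 of them with gates read from thinned counts and 31 otherwise. No member's main call changed direction late against early in whole libraries, in myocytes, in muscle progenitors against outside, or in neurons against neural progenitors. The same held for the late minus early term. The other mitosis genes and the rows paired with BUB1B and NUSAP1 were not followed under the alternatives. Fewer members were lower in late whole libraries without both E16 libraries (8, median -0.78) and without both E28 libraries (12, median -0.50), against 21 with a median of -0.69. With gates read from thinned counts, 1 member was higher in PAX3 than in MYF5/PAX7 progenitors, 5 were higher in muscle progenitors than outside, and 1 passed in the late minus early term, as did 1 at a mitochondrial limit of 5%. Fewer genes in all passed upward too: 36 in place of 139, 668 in place of 1071, 192 in place of 990 and, at the mitochondrial limit, 301.

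Late against early within classes moved as follows. PAX3 progenitors gave 5 with no filter on low counts, 0 with 1 more marker, 0 with thinned gates, 4 without E16 and 0 without E28. Sclerotome gave 5 with no filter, 1 with doublets kept, 1 with thinned gates and, without E28, 0 lower and 1 higher (KIF11). Chondrogenic cells gave 0 with 1 more marker, without E16 or without E28. Connective tissue gave 5 with doublets kept, 8 with 1 more marker, 10 with thinned gates and 1 without E16. Crest and glia gave 16 with no filter, 0 at a mitochondrial limit of 5% and 2 without E28. Endothelial cells gave 3 at that limit and 6 without E28. Erythroid cells gave 1 under DESeq2 and 1 with thinned gates, and neurons gave 3 of 13 tested with thinned gates (median -2.04). Shares of all genes called are not given for these runs, so the counts alone do not single out the members. The causes were not tested.

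The early minus late difference in the share of cells was 41 percentage points at 3000 UMIs, 47.5 without thinning, 38.5 with 3 or more members, 23.8 with 5 or more and 26.1 without HMGB2 and CKAP2, all in the direction of the 31 reported. Higher limits did not separate the stages. Early and late shares overlapped at 8 or more members (13.0% to 23.5% and 8.38% to 13.9%) and at 12 or more (2.16% to 6.75% and 4.59% to 6.72%).

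With 1 library left out at a time, the counts of members called were 16 to 22 for whole libraries, 31 to 31 for myocytes, 0 to 0 for the breeds and for PAX3 against MYF5/PAX7, 11 to 25 for muscle against outside, 2 to 18 for its late minus early term and 5 to 28 for neurons against neural progenitors. Within classes they were 0 to 3 for PAX3, 0 to 3 for sclerotome, 0 to 10 for chondrogenic, 2 to 16 for connective, 5 to 11 for crest and glia, 14 to 29 for endothelial, 0 to 1 for erythroid and 29 to 30 for neurons. Calls over all genes moved as well, for muscle against outside from 562 to 1251 higher. Comparisons of classes had the library and those of breeds the stage as a block throughout. For late against early libraries no paired analysis was possible because each stage came from other embryos and the labels give no replicate numbers. Breed, which the stages share, was a covariate.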
